A study of Mus musculus with 2 samples.

Results

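The probes described here lie in a pair of blocks of the mouse genome rich in KRAB zinc finger genes, on chromosomes 2 and 4. They come from a DNA methylation study of fibroblasts. They were chosen from windows by the position of their first base in the mm9 build. Those windows had been proposed because the ratios of precipitated to input DNA inside them were low on these same arrays. The low level of the blocks is therefore a description, and no test was made of it. The chromosome 2 block held 205 probes in 31 tiled regions, from chr2:174892772-177814338. The chromosome 4 block held 242 probes in 31 tiled regions, from chr4:145650471-147535403. Together they were 447 of the 174638 genomic probes of the array, and 434 of them (204 on chromosome 2 and 230 on chromosome 4) passed the requirement that the input signal be well above background on both arrays.

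There were 2 arrays, 1 per condition. The first carried DNA of mouse embryonic fibroblasts (MEFs, connective tissue cells of the embryo) kept in 100 µM thymidine, the deoxynucleoside of thymine, for 2 days, and a sort for the blood cell protein CD45 is named in its source label. The second carried DNA of MEFs without thymidine. Both cultures came from C57BL/6 embryos of stage E14.5, both had been depleted with magnetic beads of cells bearing CD45, CD41, CD31 or c-Kit, and both grew on a layer of MEFs whose division had been stopped with mitomycin. Whether feeder DNA was removed is not stated, and no marker gene of a cell type could be looked up, because the files give positions and no gene names. On each array an antibody against 5-methylcytosine had precipitated sheared DNA of 200 to 1000 bp. The precipitate was labelled with Cy5 and unprecipitated input DNA with Cy3. The input of the thymidine array is labelled as plain MEFs in one field and as thymidine-treated in another, so its culture is not settled, and sort, input, slide and treatment cannot be told apart. With 1 array per condition no difference has a replicate check.

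KRAB zinc finger proteins bind DNA through arrays of C2H2 zinc fingers and recruit, through their Krüppel-associated box (KRAB), the corepressor TRIM28 and with it the histone methyltransferase SETDB1. Many of them silence retrotransposons. In mammalian genomes their genes lie in clusters that grew by tandem duplication, so neighbouring genes share long stretches of nearly identical DNA, and the clusters on distal mouse chromosomes 2 and 4 are among those that expanded in the rodent lineage. DNA present in many copies gives a probe more input to bind, since every copy contributes to the signal of every matching probe.

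The array files name no genes. In the RefSeq gene table of the GRCm38.p6 build, a later build whose positions cannot be set against the mm9 positions of the probes, the genes between Edn3 and Phactr3 on chromosome 2 numbered 80. Of these, 32 were protein-coding, starting with Gm14444 and ending with Zfp931, 9 carried a Zfp name, and 25 were pseudogenes. Between Tnfrsf8 and Miip on chromosome 4 lay 82 genes, of which 19 were protein-coding, 16 with a Zfp name, and 56 were pseudogenes. Among the chromosome 4 genes were Zfp600, Rex2 and Zfp979. Zfp979 has the synonym Ssm1b, a strain-specific modifier known for inducing methylation of a transgene in early embryos. The genes were taken as the neighbours of each block by name and order. No probe was assigned to a gene.

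The promoters of these genes show how alike the copies are, which is why 5 of them are printed. RefSeq promoters of GRCm38.p6, spanning 250 bases before to 50 after a gene's start, were found for 31 of the chromosome 2 genes (36 promoters) and 14 of the chromosome 4 genes (17 promoters). The sequences run 5′ to 3′ on the strand of the gene, in lower case, and capitals mark each CG dinucleotide, the main site of cytosine methylation in mammals.
Zfp966, chr2:175931051-175931350, minus strand: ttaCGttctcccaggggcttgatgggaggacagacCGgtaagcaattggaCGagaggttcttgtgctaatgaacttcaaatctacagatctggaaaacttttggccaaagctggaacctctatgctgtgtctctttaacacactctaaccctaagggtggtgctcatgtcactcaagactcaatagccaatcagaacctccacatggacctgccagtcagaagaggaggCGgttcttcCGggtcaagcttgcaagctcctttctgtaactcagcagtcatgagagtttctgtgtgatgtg
Gm4724, chr2:175435728-175436027, minus strand: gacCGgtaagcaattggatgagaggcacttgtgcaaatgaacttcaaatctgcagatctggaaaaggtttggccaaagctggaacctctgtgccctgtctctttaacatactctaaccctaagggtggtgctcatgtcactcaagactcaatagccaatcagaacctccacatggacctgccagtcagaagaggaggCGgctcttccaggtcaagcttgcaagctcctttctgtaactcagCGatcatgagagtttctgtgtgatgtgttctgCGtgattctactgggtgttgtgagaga
Zfp600, chr4:146156577-146156876, plus strand: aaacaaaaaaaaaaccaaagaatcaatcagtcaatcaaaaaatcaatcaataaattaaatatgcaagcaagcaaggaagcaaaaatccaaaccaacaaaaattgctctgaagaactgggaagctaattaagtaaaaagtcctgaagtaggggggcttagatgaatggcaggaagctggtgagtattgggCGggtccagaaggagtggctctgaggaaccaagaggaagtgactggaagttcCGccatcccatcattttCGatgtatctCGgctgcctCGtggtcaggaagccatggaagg
Rex2, chr4:147021600-147021899, plus strand: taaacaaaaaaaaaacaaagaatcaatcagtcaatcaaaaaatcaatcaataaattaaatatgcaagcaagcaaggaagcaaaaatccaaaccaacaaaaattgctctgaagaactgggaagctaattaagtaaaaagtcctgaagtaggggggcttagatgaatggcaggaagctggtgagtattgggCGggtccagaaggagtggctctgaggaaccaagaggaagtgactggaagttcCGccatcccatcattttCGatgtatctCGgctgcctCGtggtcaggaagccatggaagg
Zfp979, chr4:147642459-147642758, minus strand: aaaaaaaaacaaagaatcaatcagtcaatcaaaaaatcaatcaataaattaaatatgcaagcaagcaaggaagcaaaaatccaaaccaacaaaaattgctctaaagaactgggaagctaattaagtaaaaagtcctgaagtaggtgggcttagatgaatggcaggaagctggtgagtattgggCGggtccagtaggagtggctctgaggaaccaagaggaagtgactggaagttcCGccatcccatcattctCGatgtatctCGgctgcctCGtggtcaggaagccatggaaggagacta
The Zfp966 promoter was identical over its 300 bases to that of Zfp967, which lies on the plus strand at chr2:176520754-176521053. The Gm4724 promoter was identical to those of Gm2026, Gm14434 and Gm14308. Zfp968 and Zfp973 differed by the single substitution A106G, counted from 1 at the 5′ end of the printed strand with the Zfp968 base first. On chromosome 4 the Zfp600 and Rex2 promoters were 99.3% identical, with 2 edits between them. Over 615 promoter pairs of different chromosome 2 genes the median identity was 64.3%, and 76 pairs reached 90% or more. Over 132 such pairs on chromosome 4 the median was 49.7%, and 3 pairs reached 90%. Identity was counted from the edits between whole windows, so copies whose windows start at offset positions score lower. The Zfp966 and Gm14295 windows, which hold the same sequence at an offset, scored 14 edits and 95.3%. The medians are therefore not the share of matching bases in aligned copies. The promoters were also poor in CG, a motif that reads the same on both strands. The chromosome 2 promoters held a median of 3.5 CG (range 0 to 5) and the chromosome 4 promoters 5 (range 1 to 16), against 7 over all 32851 promoters of the table. At least 1 CG was present in 97.2% and 100% of them, against 94.6% of all promoters. These counts describe the letters of the printed windows and not the probes, whose own sequences are not in the files. Whether few CG or little methylation lay behind a low ratio was therefore not tested.

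Inside the chromosome 2 block the precipitate was low relative to input in every tiled region. These regions had a median span of 1443 bp, and their starts lay a median of 66109.5 bp apart, so most of the block was not read. The measure is the log2 ratio of precipitate to input of a probe, centred on the median of all kept probes of its array, so that 0 is the typical probe and -1 is a ratio lower by a factor of 2. The median over the 204 probes was -2.05 on the thymidine array (SD over probes 1.30) and -2.38 on the untreated array (SD over probes 1.38). All 31 tiled regions, stretches whose probe starts lie under 1000 bp apart and that hold at least 3 kept probes, had a median of -1 or less on both arrays, where 3.69% of the 21518 regions of the array did so on the thymidine and 4.97% on the untreated array. A ratio of -1 or less was found at 150 probes (73.5%) on the thymidine array and 167 (81.9%) on the untreated array, against 11.3% and 15% of all kept probes. A ratio of -2 or less was found at 105 probes (51.5%) and 119 probes (58.3%), against 3.39% and 5.19% of all kept probes. By region, 15 medians on the thymidine array and 21 on the untreated array were at -2 or less, against 1.31% and 1.75% of all regions. Since the windows were drawn on low ratios, these shares only describe what was chosen.

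On both sides of the chromosome 2 block the ratio stepped between the nearest tiled regions inside and outside it. The windows were drawn on low ratios, so a step at their edges describes the choice. Where between those regions it lay was not read. The first region of the block, chr2:174892772-174894557, had a median ratio of -2.39 on the thymidine and -2.83 on the untreated array. The nearest region before it, chr2:174584973-174586653, had -0.05 and 0.02. Its last region, chr2:177812846-177814338, had -3.27 on the thymidine and -3.10 on the untreated array, the lowest region on the thymidine array in this block. The next region, chr2:177852395-177854104, had 0.18 and 0.21. None of the 72 regions in the 3 Mb on either side had a median of -1 or less on either array, and the median over the probes there was 0.04 on the thymidine and 0.03 on the untreated array.

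The chromosome 4 block was not uniform. The ratios changed level along it, and a single cut placed after the values were seen, where it left the least squared deviation within the pieces, gave a proximal stretch of 17 regions (114 probes, chr4:145650471-147185118) and a distal stretch of 14 regions (128 probes, of which 116 were kept, chr4:147195886-147535403). The median ratio of the proximal stretch was -2.63 on the thymidine and -2.85 on the untreated array (SD over probes 1.61 and 1.64). The median of the distal stretch was 0.10 on the thymidine and 0.06 on the untreated array, close to the typical probe. The median over the whole chromosome 4 block, -0.71 on the thymidine and -1.06 on the untreated array, thus describes neither of its stretches. Medians of -1 or less were found in 15 of 17 proximal regions on each array, and in 1 of 14 distal regions on the thymidine and 0 of 14 on the untreated array.

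Within the gene order of GRCm38.p6, the genes Miip, Fv1, Mfn2, Plod1, Nppb and Nppa follow the chromosome 4 cluster on its distal side. Whether the distal stretch holds zinc finger genes, those neighbours or both was not tested, because no annotation of mm9 was used here. The first region after the window, chr4:147661575-147663301, had 0.57 on the thymidine and 0.54 on the untreated array. The region before the window, chr4:145425824-145427464, had -0.89 and -0.62. The first region of the block itself, chr4:145650471-145651407, had -0.45 on the thymidine and -0.79 on the untreated array, so no step down on both arrays marked this edge. Of the 88 regions within 3 Mb of the chromosome 4 block, 10 on the thymidine and 13 on the untreated array had a median of -1 or less.

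By the mean of both arrays, the lowest regions of the blocks belonged to the proximal stretch of chromosome 4. At chr4:147016118-147017560 the median was -3.58 on the thymidine and -4.03 on the untreated array, the 6th lowest mean of both arrays among 21518 regions. At chr4:145682677-145684282 it was -3.52 and -4.04, the 9th lowest. At chr4:146926098-146927789 it was -3.55 and -3.85. These 3 regions were among those with the brightest input of the array. The input signal at chr4:145682677-145684282, in log2 units above the array median, was 2.77 on the thymidine and 3.38 on the untreated array, the 15th highest of all regions, while its precipitate was -1.07 and -1.10.

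Another of the lowest regions combined a low ratio with an ordinary input. At chr4:146512936-146514527 the ratio was -3.23 on the thymidine and -3.41 on the untreated array, with input at 0.00 and 0.04 and precipitate at -3.96 and -3.87. Only 2 of its 8 probes had a precipitate well above background on both arrays, so for the others the size of the ratio is uncertain. At chr4:146063414-146065201 the ratio was -3.09 on the thymidine and -3.44 on the untreated array, and the probes agreed closely, with an SD within the region of 0.52 and 0.54.

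A single proximal region stood near the typical level of the array. At chr4:146033954-146035305 the median was 0.22 on the thymidine and 0.01 on the untreated array. Its 7 probes were far apart, with an SD of 2.27 and 2.47, so its median describes none of them well. The level rose in steps at the start of the distal stretch. Its first region, chr4:147195886-147197244, had -1.07 on the thymidine and -0.94 on the untreated array, and the next, chr4:147221995-147223722, had -0.33 and -0.69. From chr4:147461674-147463434 to the end of the block all 5 regions were above 0 on both arrays. The highest of them was chr4:147504311-147506075, with 0.64 on the thymidine and 0.50 on the untreated array and a precipitate well above background at 8 of 8 probes.

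On chromosome 2 the regions with the lowest mean of both arrays were chr2:177812846-177814338 and chr2:176849841-176851197, the second with -3.10 on the thymidine and -3.11 on the untreated array. Of its 6 probes, 1 had a precipitate well above background on both arrays. By the mean of both arrays the highest region was chr2:177492707-177494202, with -1.24 on the thymidine and -1.22 on the untreated array and 6 of 7 probes measured in both channels. Over the 31 regions the medians lay between -3.27 and -1.10 on the thymidine array and between -3.14 and -1.22 on the untreated array. The probes of a region were far apart, with an SD within the region whose median over regions was 1.28 on the thymidine and 1.42 on the untreated array. In all other regions of the array that median was 0.69 on the thymidine and 0.76 on the untreated array.

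How much of the low ratio came from each channel differed between the blocks. The input of the chromosome 2 block lay 0.58 above the array median on the thymidine and 0.96 above it on the untreated array, and its precipitate lay at -1.36 and -1.39. In the proximal stretch of chromosome 4 the input was much brighter, at 1.81 on the thymidine and 2.31 on the untreated array, and the precipitate was at -0.98 and -0.84. The distal stretch was ordinary in both channels, with input at 0.05 and -0.01 and precipitate at 0.16 and 0.13. Of the 17 proximal regions, 10 had an input in the highest 1% of all regions, while 0 of 31 chromosome 2 regions did. No probe of either block was saturated.

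Probe length bears on these levels, because long probes on this array were dimmer in both channels. The probes of the blocks were 45 to 60 bases long. The median length was 51 bases in the chromosome 2 block and 53 in the proximal stretch, against 45 in the distal stretch and in all other probes. Probes longer than 45 bases made up 77.5% of the chromosome 2 block and 74.6% of the proximal stretch, against 42.8% of all other probes. Set against probes of the same length, the chromosome 2 input was 1.17 above on the thymidine and 1.44 above on the untreated array, and the precipitate was at -0.67 and -0.84. On that scale the proximal stretch had an input of 2.43 on the thymidine and 2.74 on the untreated array, and a precipitate of 0.07 and 0.16. Measured against probes of equal length, the low ratio of the proximal stretch thus stood beside a raised input and a precipitate near the typical level, whereas on chromosome 2 both channels departed from it. How much of the raised input came from DNA copies was not tested.

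Long probes had lower ratios in the chromosome 2 block and the proximal stretch, by a wider margin than elsewhere. Chromosome 2 probes of 45 bases had a median ratio of -0.79 on the thymidine and -0.94 on the untreated array, and those of 60 bases had -3.04 and -3.40. The classes between did not fall in order, since on the thymidine array probes of 46 to 52 bases had -2.15 and those of 53 to 59 bases -1.66. The precipitate of the 60-base chromosome 2 probes was at -3.94 on the thymidine and -4.20 on the untreated array. At so dim a precipitate the size of the ratio is uncertain. In the proximal stretch the probes of 45 bases had -1.13 on the thymidine and -1.53 on the untreated array, those of 53 to 59 bases had -3.53 and -3.85, and those of 60 bases had -3.19 and -3.51. Among all other probes the 45-base class had 0.16 on each array, and the 60-base class had -0.49 on the thymidine and -0.54 on the untreated array. The distal probes of 45 bases had 0.37 on the thymidine and 0.28 on the untreated array, and the 4 distal probes of 60 bases had -0.17 and -0.71. At 45 and 60 bases the chromosome 2 and proximal probes were lower than the other probes.

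A large share of the chromosome 2 ratios rest on a precipitate that was not well above background. Both channels were measured on both arrays at 113 of 204 chromosome 2 probes (55.4%), 73 of 114 proximal probes (64.0%) and 94 of 116 distal probes (81.0%), against 82.9% of all other probes. Over those probes alone, with the centring of all kept probes, on which the other probes measured in both channels had 0.14 and 0.15, the median ratio was -1.05 on the thymidine and -1.49 on the untreated array in the chromosome 2 block, and -1.78 and -2.17 in the proximal stretch. Raising every dim precipitate to the lowest signal well above background, which turns those ratios into upper limits, gave a chromosome 2 median of -1.37 on the thymidine and -1.70 on the untreated array. A normexp background correction, which keeps dim signals positive, gave -0.99 on the thymidine and -1.21 on the untreated array, and a difference of 0.21 between the arrays. The dim probes were also those with little input. The 138 chromosome 2 probes with an input above the array median had a ratio of -1.45 on the thymidine and -1.82 on the untreated array, with both channels measured at 78.3% of them. The other 66 had -3.02 and -3.38, with both channels measured at 7.58%.

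Other low runs of the array had a raised input and a low precipitate for their probe length too. Over chr7:20685501-24086631 the median ratio was -2.59 on the thymidine and -2.92 on the untreated array. Against probes of the same length its input was at 1.54 and 1.71 and its precipitate at -0.99 and -0.92, and both channels were measured at 41.6% of its probes. Over chr4:60015121-61749551 the median ratio was -2.15 on the thymidine and -2.65 on the untreated array. There the input for the length was at 1.20 and 1.44, the precipitate at -1.15 and -1.04, and both channels were measured at 48.3% of the probes. The departure of both channels was thus not confined to the chromosome 2 block.

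Repeated stretches of the blocks could be followed directly, because the array tiled several of them with the same probe layout. A shared tiling was counted where regions of at least 5 probes had the same distances between probes and the same probe lengths. Of the 31 chromosome 2 regions, 15 (48.4%) shared their tiling with another region of the array, as did 2 of 17 proximal regions (11.8%) and 0 of 14 distal regions. Among all other regions 138 of 21520 (0.641%) did so, and among those of the chromosome 7 run 50 of 81 (61.7%). The layout was compared and not the sequence, so whether such probes have the same bases was not read.

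The 15 chromosome 2 regions formed 7 families, all with both or all members on chromosome 2. The largest had 3 members, starting at positions 175261035, 176096936 and 176420785 and each spanning 1443 bp. The other 6 were pairs, and the proximal stretch held a further pair, at 145849493 and 146394849. The order of families recurred too: the region starting at 175261035 was followed 33486 bp later by that at 175294521, and the matching region at 176096936 was followed 33481 bp later by that at 176130417, which shares the tiling of the one at 175294521.

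Matched probes of these regions gave nearly the same ratio. In the family of 3, the first probe had -0.09, -0.12 and -0.09 on the thymidine array and 0.26, 0.26 and 0.24 on the untreated array. The probe 1179 bp from it had -0.65, -0.55 and -0.77 on the thymidine array and -1.52, -1.42 and -1.57 on the untreated array. Both channels were measured at these probes, and in all 3 members the first probe was lower and the probe at 1179 bp higher on the thymidine array. The probe at 423 bp was read at -4.69, -4.66 and -4.59 on the thymidine array and -5.50, -5.51 and -5.37 on the untreated array, but its precipitate was not well above background in any member. The size of those values is therefore uncertain. Their order between the arrays follows the input, which in the first member was at 0.58 on the thymidine and 1.18 on the untreated array.

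In the pair starting at 175702375 and 175929777, the first probe had 1.06 and 1.07 on the thymidine array and 0.47 and 0.45 on the untreated array. The probe 317 bp from it, measured in both channels, had -2.81 and -3.03 on the thymidine array and -3.27 and -3.15 on the untreated array. The pair on chromosome 4 repeated its profile in the same way. Its probe 969 bp from the first had -3.84 and -4.16 on the thymidine array and -4.26 and -4.18 on the untreated array, and the probe at 1249 bp had -1.62 and -1.37 on the thymidine array and -1.53 and -1.54 on the untreated array. The input at that last probe was 2.87 and 2.74 above the array median on the thymidine array and 2.94 and 2.82 above it on the untreated array, so the bright input was repeated too.

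Over the 64 matched probe pairs of the 8 families the median absolute difference of the ratio was 0.10 on the thymidine and 0.12 on the untreated array, and 62 and 61 pairs agreed within 0.5. The SD of one probe taken from these pairs was 0.15 on the thymidine and 0.16 on the untreated array, against an SD of 1.38 and 1.49 over the same probes. Pearson's r between matched probes was 0.99 on each array, given as a description, since the pairs share an array, a layout and perhaps their targets. In 36 of the pairs both channels were measured in both members, and there the median absolute difference was 0.12 on the thymidine and 0.10 on the untreated array, and the SD of one probe was 0.13 and 0.11. If matched probes bind the DNA of every copy, they are repeated readings of one pool and do not show the state of each copy, which was not tested. Either way this spread covers reading error within an array only.

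Between the arrays, the ratios of both blocks were higher after thymidine. The chromosome 2 block had a median difference, thymidine minus untreated, of 0.38 (SD over probes 0.34), and 173 of its 204 probes (84.8%) were above 0. The chromosome 4 block had a median difference of 0.22 (SD over probes 0.34), made up of 0.36 in the proximal stretch, where 92 of 114 probes were above 0, and 0.07 in the distal stretch. All other probes had a median of 0.07, with 57.5% above 0. By region, the median difference was above 0 in 31 of 31 chromosome 2 regions and 29 of 31 chromosome 4 regions, against 65.1% of all regions. The error between cultures is unknown, so whether such a shift would recur in other cultures cannot be told.

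The input channel moved with this difference. On the chromosome 2 block the input, relative to its array's median, was lower on the thymidine array at 178 of 204 probes, with a median change of -0.24, while the precipitate changed by 0.06. In the proximal stretch the input was lower at 102 of 114 probes, with a median change of -0.43, and the precipitate changed by -0.05. These were 87.3% and 89.5% of the probes, against 48.1% of all kept probes. In the chromosome 7 and chromosome 4 low runs given above, the input was lower at 81.6% and 83.2% of probes. The median input changes there were -0.21 and -0.20. The input was lower in 31 of 31 chromosome 2 regions and 24 of 31 chromosome 4 regions, against 45.2% of all regions. So most of the shift in ratio lay in the input channel. Whether the unsettled origin of the thymidine input has a part in it was not tested.

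Below a mean ratio of -2, probes elsewhere on the array differed by about as much. Among all other probes with a mean ratio below -2, the median difference was 0.49 and the median input change -0.48. In the same range the chromosome 2 probes had 0.44 with an input change of -0.31, and the proximal probes 0.38 with -0.50. Between -2 and -1 the difference was 0.38 on chromosome 2 and 0.23 in the proximal stretch, against 0.31 in all other probes. Between -1 and 0 it was 0.15 (32 probes) and 0.36 (13 probes), against 0.07. At 0 or more it was 0.24 (10 probes) and -0.03 (5 probes), against 0.01. After the median difference of all kept probes of the same level was subtracted, 0.01 remained on chromosome 2, -0.07 in the proximal stretch and 0.03 in the distal stretch. Above 0 were then 18 of 31 chromosome 2, 5 of 17 proximal and 9 of 14 distal regions, against 10695 of all 21518 regions. With the arrays quantile-normalised the difference was 0.010 on chromosome 2 and -0.061 in the proximal stretch. The higher ratio after thymidine was therefore not shown to be particular to these blocks.

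A region was counted as changed when the median over its probes moved by 0.5 or more and no fewer than 80% of the probes moved that way. By this rule 4 chromosome 2 regions and 2 chromosome 4 regions were higher after thymidine, against 0.706% of all regions, and 0 in either block were lower, against 0.0558%. The largest on chromosome 4 was chr4:145748727-145750146, with -2.28 on the thymidine and -2.81 on the untreated array and a median difference over its probes of 0.69 (SD 0.35). Its input changed by -0.47 and its precipitate by 0.16. The other was chr4:145695577-145697142, with -1.31 and -2.09 and a difference of 0.56 (SD 0.45).

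On chromosome 2 the largest was chr2:176329442-176330804, with -1.53 on the thymidine and -2.29 on the untreated array and a difference of 0.62 (SD 0.21, 6 probes). Its input changed by -0.33 and its precipitate by 0.22. The others were chr2:177574742-177576221 with a difference of 0.55, chr2:175799749-175801111 with 0.52 and chr2:175702375-175703740 with 0.51. The regions starting at 175799749 and 176329442 share a tiling, so they may be a single reading made on separate spots. The region starting at 175702375 shares its tiling with that at 175929777, which had a difference of 0.40 and did not meet the rule. The smallest differences on chromosome 2 were 0.05 at chr2:177812846-177814338, 0.07 at chr2:176849841-176851197 and 0.11 at chr2:175404530-175406090. After subtraction of the level trend, 0 regions of either block met the criteria.

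For the authors' deposited table of log ratios, no source used here gives the scale or normalisation. It showed low ratios too, though less far below 0, and a far smaller difference between the arrays. With each column centred, its chromosome 2 median was -1.65 on the thymidine and -1.61 on the untreated array. The scanner signals gave -2.05 and -2.38. In it 31 of 31 chromosome 2 regions had a median of -1 or less on the thymidine array and 31 on the untreated array, as did 15 and 14 of 31 chromosome 4 regions, against 2.53% and 2.37% of all regions. The uncentred difference between its columns was above 0 in 10 of 31 chromosome 2 regions and 16 of 31 chromosome 4 regions. The medians were -0.06 and 0.01. Of all 21518 regions, 7937 were above 0, with a median of -0.05. With each column centred, the median difference over probes was 0.020 on chromosome 2 and 0.027 on chromosome 4. All kept probes had 0.010. Low ratios in the blocks were thus present in both sets of values. In the authors' table they were less low, and the difference between the arrays was far smaller.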

How the data were processed

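DNA of 1 thymidine and 1 untreated culture was profiled by methylated DNA immunoprecipitation on 2-colour arrays. The deposited intensity values, per the file headers, are processed signals of Agilent Feature Extraction 11.0.1.1 on an mm9 grid, background-subtracted and scaled between dyes, together with raw medians of spot and background. The deposited log10 ratios of Cy5 over Cy3, per the file headers, are made from these signals and were not needed. The authors' deposited table holds log2-like ratios of unstated normalisation, taken as log2 and used as an alternative. Cy5 was the precipitate on each array, so no dye swap balances dye bias.

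Log2 of processed Cy5 over Cy3 was centred on each array's median, without loess or quantile adjustment. Control spots were left out, as were probes with a feature outlier flag or an input not well above background on either array, which left 142569 of 174638 probes. Tiled regions, thresholds and matched tilings are defined in the report. Each channel was centred on its array's median over kept probes before differences were taken, and the differences were not centred again. Named regions are the 5 lowest, the 5 highest, the 3 with the largest and the 3 with the smallest difference, and the first and last of each block, from which the text gives those that bear on the description. Promoters to print were those most alike in each block. The planned protein comparison was not analysed here. The planned normexp correction used median instead of mean signals. Blocks and lists were chosen with earlier results of these data known, the cut within chromosome 4 and the floor on the precipitate after the values were seen. The number of arrays limits precision, and with 1 array per group no p-value was computed. Only the rule for changed regions was tested on simulated data, made of shuffled differences with a known shift larger than its threshold. The other counts were not tested in this way. Tools were Python 3.11.15, pandas 2.3.3, R 4.3.3 and limma 3.58.1, the last for the normexp (offset 50) and loess alternatives.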

Additional observations from a re-analysis of the deposited data

How the results depend on the processing

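The values under which the results moved are listed by alternative, each pair as thymidine then untreated. The median ratio of the chromosome 2 block stayed below 0 under every alternative run, and so did that of the whole chromosome 4 block. With only probes measured in both channels, and each array centred anew on them, it was -1.19 and -1.64 on chromosome 2 and -0.42 and -0.36 on chromosome 4, with 14 of the 21 chromosome 2 regions left low on the thymidine array and 21 on the untreated array, and 4 chromosome 4 regions higher. With normexp it was -0.99 and -1.21 on chromosome 2 and -0.44 and -0.66 on chromosome 4, a chromosome 2 difference of 0.21, 14 of 31 low chromosome 2 regions on the thymidine array and 0 higher regions in each block. With raw medians the ratios were -1.43 and -1.85 on chromosome 2 and, untreated, -0.87 on chromosome 4, with 5 higher chromosome 4 regions. The raw precipitate was at -1.10 and -1.08 on chromosome 2, and the raw input at 0.97 and 1.16 on chromosome 4. Loess gave -1.83 and -2.20 on chromosome 2.

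Quantile normalisation gave -2.27 and -2.17 on chromosome 2, a difference of 0.010 there, -0.0031 on chromosome 4 and -0.061 in its proximal stretch, and 0 higher regions in each block. The authors' deposited table, centred, gave -1.65 and -1.61 on chromosome 2, -0.68 untreated on chromosome 4, a chromosome 2 difference of 0.020, a chromosome 4 difference of 0.027 and 0 higher regions in each block. The precipitate alone gave -1.36 and -1.39 on chromosome 2, -0.46 and -0.45 on chromosome 4, differences of 0.058 on chromosome 2, 0.0030 on chromosome 4 and -0.048 in the proximal stretch, 20 low chromosome 2 regions on the thymidine array and 0 higher regions in each block. With the level trend removed the difference was 0.0059 on chromosome 2, -0.0051 on chromosome 4 and -0.070 in the proximal stretch, with 0 higher regions in each block. Under these alternatives the chromosome 2 difference thus kept its sign at a far smaller size, and the proximal difference changed sign under all but the authors' table.

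Centring within probe length gave -1.70 and -2.06 on chromosome 2 and 1 higher region there. Probes of 60 bases alone (51 and 35 probes) gave -2.54 and -2.84 on chromosome 2, -2.54 and -2.76 on chromosome 4 and -0.15 untreated in the distal stretch, and left 4 regions of each block, all 4 low on both arrays and 0 higher. Without the brightest 10% of input the ratio was -2.22 on chromosome 2 (thymidine) and -0.49 and -0.67 on chromosome 4, with 4 higher chromosome 4 regions. The floor on the precipitate gave -1.37 and -1.70 on chromosome 2, -0.85 untreated on chromosome 4 and 4 higher chromosome 4 regions. Regions as units gave -1.02 on chromosome 4 (thymidine). Without a filter on dim probes 1 chromosome 2 region was higher, the input was at 1.04 and 1.40 on chromosome 2 and 1.40 and 1.50 on chromosome 4, and the precipitate at -0.80 and -0.83 on chromosome 2 and -0.050 and -0.035 on chromosome 4. At -2 as the level, 15 chromosome 2 regions were low on the thymidine array. At 0.3 as the difference, 17 and 8 regions of the blocks were higher, and at 1, 0 and 0. The causes of these changes were not tested beyond what each alternative's own construction shows. A dim precipitate limits how low a ratio can be read. No paired analysis was possible because each group has 1 array.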
